A study of Mus musculus with 5 samples.

Results

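10 genes of arginine uptake, arginase and polyamine metabolism were followed at single-cell resolution in group 2 innate lymphoid cells (ILC2s) of the mouse lung. The 10 genes were taken by symbol and are *Arg1*, *Arg2*, *Odc1*, *Srm*, *Sms*, *Amd1*, *Azin1*, *Oaz1*, *Slc7a1* and *Sat1*, out of 27726 genes common to all 5 libraries. Every library came from the lungs of 5 pooled wild-type C57BL/6 female mice, used at a few weeks of age, with ILC2s sorted as lineage-negative cells positive for ST2, CD127, Thy1.2 and CD45. One group was the naïve ILC2s (1 library, mice without tumour, sequenced straight after sorting). The ta-non-activated ILC2s (tumour-associated, 2 libraries) came from mice 2 or 3 weeks after a TC1 tumour was implanted under the skin and were also sequenced fresh, and are called the fresh libraries below. The ta-activated ILC2s (2 libraries, called cultured below) came from mice at the same weeks and were cultured for a week before sequencing, with TSLP, rmIL-33 and rhIL-2 added. TC1 is a mouse lung epithelial cell line transformed with viral oncogenes and an activated ras gene. Since animals were pooled, no value of a single mouse exists, and time in culture and the cytokines cannot be told apart.

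ILC2s are tissue-resident lymphocytes that answer alarmins such as IL-33 with type 2 cytokines, chiefly IL-13 and IL-5. Lung ILC2s are known to hold arginase 1, the cytosolic enzyme that splits arginine into ornithine and urea, already at rest. Ornithine decarboxylase turns ornithine into putrescine, and the synthases for spermidine and spermine lengthen it with aminopropyl groups from decarboxylated S-adenosylmethionine. Polyamines are needed by growing cells, and one spermidine-derived modification, hypusine, sits on the translation factor eIF5A. Ornithine decarboxylase is unusually short-lived because antizyme binds it and sends it to the proteasome, while antizyme inhibitor takes antizyme away.

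Levels are given as unique molecular identifiers (UMIs) of a gene scaled to the total of the kept cells (CPM), with exact Poisson 95% intervals that cover counting error only. Because only the 3′ ends of transcripts were counted, levels are compared between libraries for 1 gene and never between genes. Kept cells had at least 200 genes and under 5% mitochondrial counts. They numbered 1601 to 6389 per library with median depths of 4396 to 16090 UMIs, and library pairs shared 1 to 8 barcodes (0.0345% to 0.375% of the smaller library). Both fresh libraries from tumour-bearing mice stood apart. In week 3, 850 of 1601 cells (53.1%) held at least 2 UMIs of *Cd3d* and *Cd3e*, genes of the T cell receptor complex that the lineage gate should remove, against 1.10% to 7.45% of cells in the other 4 libraries. These are called CD3 cells below, and the main results that rest on this library are given with and without them. In week 2, the fresh cells held *Il13* at 8861 CPM, above the 3501 and 4318 CPM of the cultured libraries and the 55.6 CPM of the naïve library. All 8 ILC2 markers were detected in every library, but *Il1rl1*, which encodes the ST2 used in the sort, was at 790.5 CPM in the naïve library and at 46.7 to 121 CPM in the other 4, or at 327 CPM in fresh week 3 without CD3 cells. The 7 myeloid markers were taken because macrophages are a main source of *Arg1* in other settings. Of these, *C1qa*, *Mrc1*, *Chil3* and *Csf1r* were at or near 0 (at most 0.278 CPM). *Adgre1* was at 1.47 CPM in cultured week 3 and at most 0.213 CPM elsewhere, and *Cd68* was at 0.679 to 2.34 CPM over the libraries. *Lyz2*, the most abundant of the list, was at 8.18 CPM in the naïve library and 13.4 CPM in fresh week 3, which also have the highest *Arg1*, and at most 0.0602 CPM in the other 3. The list summed to 0.99 to 16.1 CPM, and leaving out cells with at least 2 of its UMIs is among the alternatives. Without those cells *Arg1* was at 349 CPM in the naïve library and 56.0 CPM in fresh week 3, against 348 and 55.1 CPM with all kept cells. The 8 ILC2 markers summed to 8616 CPM in the naïve library and 1620 to 4207 CPM in the other 4, and the 5 T cell markers to 1029 CPM in fresh week 3 and 4.81 to 105 CPM elsewhere. Nearly all of the fresh week 3 sum was *Cd3d* (679 CPM) and *Cd3e* (339 CPM), the genes that define the CD3 cells. *Trac* was at 9.37 CPM there, below the 16.4 CPM of the naïve library, *Cd8a* was at 2.34 CPM and *Cd4* at 0.319 CPM. Of the 4 mast cell markers, *Cpa3* was at 82.3 CPM in fresh week 3 and 28.7 CPM in the naïve library, where *Mcpt4* and *Tpsb2* were at 0 and *Cma1* was at 0 and 0.278 CPM. The 3 epithelial markers summed to 284 CPM in the naïve library, 215 CPM of it *Scgb1a1*, and to 2.02 to 80.6 CPM in the other 4, and the 4 endothelial markers to 88.2 CPM and 11.1 to 38.6 CPM. Apart from leaving out the myeloid cells, the part of such cells or their RNA in the naïve and fresh week 3 levels was not tested. The naïve matrix was made with another Cell Ranger version than the other 4, and the part of this in any naïve difference was not tested.

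Promoter windows of 250 bases before the annotated start (RefSeq, GRCm38.p6) were at hand for 6 of the 10 genes, 8 windows in all. *Arg1*, *Arg2*, *Srm* and *Azin1* had no window. They were searched on both strands for 4 motifs: CACGTG (E-box, bound by Myc, a known driver of polyamine genes), TGACGTCA (cAMP response element), TGANTCA (AP-1) and the STAT6 motif (TTC and GAA with 4 bases between them, for the factor downstream of IL-4 and IL-13). Only the windows below held a match, 1 each, and they are shown for that reason, 5′ to 3′ on the gene's strand with the motif in capitals.
Sms, chrX:157492288-157492537, minus strand: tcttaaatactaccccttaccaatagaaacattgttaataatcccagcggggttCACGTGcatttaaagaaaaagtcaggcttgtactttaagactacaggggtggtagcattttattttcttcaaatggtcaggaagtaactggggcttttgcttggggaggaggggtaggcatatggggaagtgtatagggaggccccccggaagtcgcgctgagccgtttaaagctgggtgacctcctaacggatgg
Slc7a1, chr5:148399905-148400154, minus strand: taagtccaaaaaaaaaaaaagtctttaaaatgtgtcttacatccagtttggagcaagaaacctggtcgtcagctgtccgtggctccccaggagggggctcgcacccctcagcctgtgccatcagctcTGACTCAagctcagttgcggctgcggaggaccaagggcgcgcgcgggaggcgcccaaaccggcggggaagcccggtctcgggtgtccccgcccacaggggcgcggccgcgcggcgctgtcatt
The E-box of *Sms* began 196 bases before the start, and 6.02% of 32851 RefSeq promoter windows of this length held one. The AP-1 match of *Slc7a1* began 123 bases before the start, and 6.75% of all windows held one. A match is a description of the letters and not a bound site. *Sms* and *Slc7a1* each had a second window, at another annotated start, that held none of the 4 motifs. The *Odc1*, *Amd1*, *Oaz1* and *Sat1* windows held none of the 4 motifs, which are in 1.55% (TGACGTCA) to 6.75% of all windows.

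*Arg1* (ENSMUSG00000019987, chromosome 10 from 24915221 to 24927484 of GRCm38, minus strand), the arginase gene of the set, had the widest range. It was at 348 CPM (342 to 355) in the naïve library, 5.21 CPM (4.46 to 6.04) in fresh week 2, 55.1 CPM (50.5 to 60.1) in fresh week 3, 40.8 CPM (39.2 to 42.5) in cultured week 2 and 21.3 CPM (20.1 to 22.5) in cultured week 3. The naïve library was thus highest and fresh week 2 lowest, 66.9-fold apart, and no neighbours in the order overlapped in their intervals. Without CD3 cells the fresh week 3 level was 216 CPM (198 to 236) and the naïve level 371 CPM (364 to 378), 1.71-fold apart, while the other 3 libraries stayed at 5.01, 41.5 and 21.3 CPM. The order of the 5 libraries was the same without CD3 cells. *Arg2* (ENSMUSG00000021125, chromosome 12), the mitochondrial arginase, gave 10 UMIs in the naïve library, 0 in fresh week 2, 1 in fresh week 3, 3 in cultured week 2 and 1 in cultured week 3. Its highest level was 0.309 CPM in the naïve library, and its interval (0.148 to 0.568) lay above those of fresh week 2 (up to 0.111) and cultured week 3 (up to 0.0901), while all neighbours in the order overlapped.

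The share of cells with an *Arg1* UMI followed the same order after each cell had been thinned at random to 2000 UMIs, which removes the difference in depth. It was 39.3% of 6147 naïve cells (95% Clopper-Pearson interval 38.1 to 40.5), 0.829% of 1809 cells in fresh week 2 (0.465 to 1.36), 14.0% of 1495 cells in fresh week 3 (12.3 to 15.8), 9.57% of 2822 cells in cultured week 2 (8.51 to 10.7) and 3.39% of 3714 cells in cultured week 3 (2.83 to 4.03). Without thinning these shares were 57.9%, 8.06%, 19.7%, 34.8% and 16.3%, so that the deeper cultured week 2 cells passed the fresh week 3 cells, against the order of their levels. Of the 847 CD3 cells of fresh week 3, 0.590% held an *Arg1* UMI at the same 2000 UMIs, and their median depth before thinning was 6223 UMIs. The share in fresh week 2 (median depth 16154 UMIs outside CD3 cells) had an interval that held that value. The 2 values come from different libraries, and 11.9% of the 472 naïve CD3 cells held an *Arg1* UMI, so CD3 cells set no floor for free RNA. Without thinning, a fresh week 2 cell held at most 5 *Arg1* UMIs. The part of free RNA in the fresh week 2 level was not tested. In fresh week 3, 31.5% of the 648 cells that were not CD3 cells held an *Arg1* UMI at a median depth of 3008 UMIs. At library level, fewer cells with the transcript and less transcript per cell cannot be told apart.

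**Figure D1:**
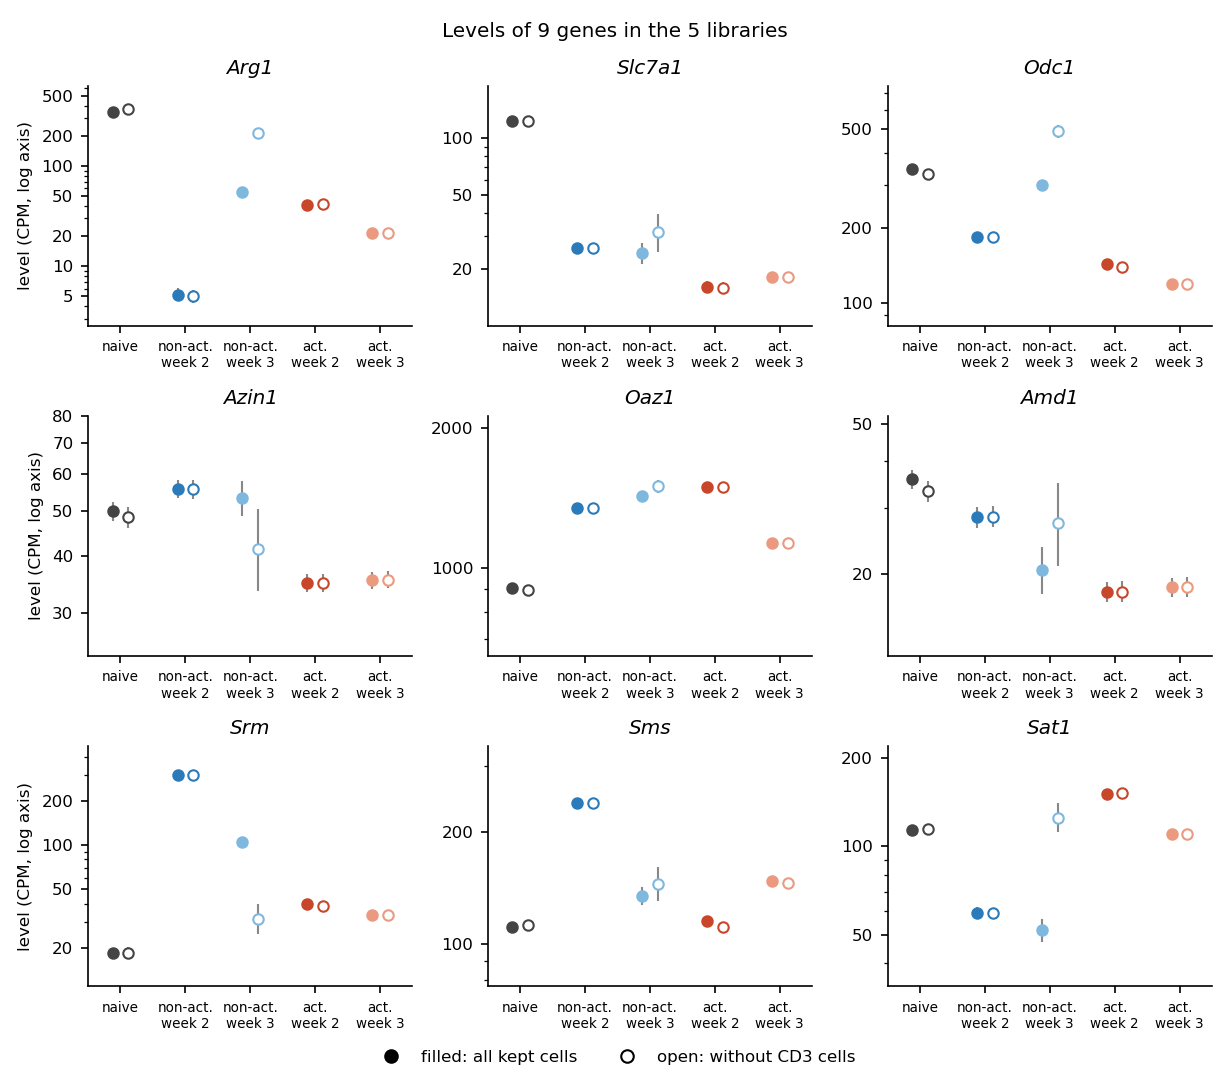
Levels of 9 of the 10 genes (CPM, log axis, each panel on its own range) in the 5 libraries; filled points are all kept cells, open points leave out CD3 cells, and bars are exact Poisson 95% intervals. *Arg1* and *Slc7a1* were highest in the naïve library, *Srm* and *Sms* in fresh week 2 (298 and 239 CPM), and *Arg1*, *Odc1*, *Srm* and *Sat1* moved most in fresh week 3 when CD3 cells were left out.

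*Slc7a1* (ENSMUSG00000041313, chromosome 5 from 148327410 to 148399904, minus strand) encodes the cationic amino acid transporter that carries arginine into the cell. It was at 123 CPM in the naïve library, 25.9 CPM in fresh week 2, 24.4 CPM in fresh week 3, 16.2 CPM in cultured week 2 and 18.2 CPM in cultured week 3. The naïve level was 7.62-fold above the lowest, and the pairs of fresh libraries and of cultured libraries each overlapped in their intervals. Leaving out CD3 cells put fresh week 3 at 31.6 CPM and the naïve library at 124 CPM. *Slc7a1* has the most intron of the 10 genes, 60965 bases against 10036 for *Arg1*, and the naïve counts come from another Cell Ranger version. The part of intronic reads in its naïve level was not tested.

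*Odc1* (ENSMUSG00000011179, chromosome 12 from 17544794 to 17551505, plus strand), the ornithine decarboxylase gene, was at 345 CPM (339 to 351) in the naïve library, 185 CPM (180 to 189) in fresh week 2, 299.9 CPM (289 to 311) in fresh week 3, 144 CPM (141 to 147) in cultured week 2 and 120 CPM (117 to 122) in cultured week 3. Both cultured libraries lay below the other 3, and no intervals overlapped. Without CD3 cells fresh week 3 was at 490 CPM (463 to 520) and became the highest, 4.09-fold above cultured week 3. The share of cells with an *Odc1* UMI at 2000 UMIs varied less, at 30.9% in the naïve library, 27.3% and 35.5% in the fresh and 19.9% and 17.9% in the cultured libraries of weeks 2 and 3. *Odc1* was unevenly spread over cells: the variance of its thinned counts was 3.22 times the mean in the naïve library, 3.63 times in fresh week 3, 2.27 and 1.96 times in the cultured libraries and 1.08 times in fresh week 2, where 1 is the ratio of random sampling. In the naïve library the top 10% of cells held 61.3% of *Odc1* UMIs. Without CD3 cells the *Odc1* ratio in fresh week 3 was 4.74. For *Arg1* the ratio was 2.02 in the naïve library and 1.84 in fresh week 3 (1.59 without CD3 cells), and for *Oaz1* it lay from 1.07 to 1.20 in all 5.

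*Azin1* (ENSMUSG00000037458, chromosome 15), the antizyme inhibitor that resembles Odc1 but has no decarboxylase activity, was at 49.9, 55.8 and 53.2 CPM in the naïve, fresh week 2 and fresh week 3 libraries. It was at 34.9 and 35.4 CPM in the cultured libraries of weeks 2 and 3, and the first 3 lay above both. Without CD3 cells fresh week 3 was at 41.4 CPM with an interval (33.5 to 50.5) that reached the cultured libraries. *Oaz1* (ENSMUSG00000035242, chromosome 10 from 80826656 to 80829290, plus strand), antizyme itself, was found in 81.6% to 93.5% of thinned cells and had a narrow range: 903 CPM in the naïve library, 1344 and 1425 CPM in the fresh and 1490 and 1128 CPM in the cultured libraries of weeks 2 and 3. The lowest and highest were 1.65-fold apart. Antizyme protein depends on a ribosomal frameshift that polyamines promote, so transcript levels say nothing of its amount. GENCODE lists a processed copy, *Oaz1-ps*, all of whose 50-base windows in the last 500 bases are also in *Oaz1* transcripts. The copy holds 165 of 451 such windows (36.6%) of *Oaz1* and has no entry among the genes used here, so some *Oaz1* reads may have been lost.

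*Amd1* (ENSMUSG00000075232, chromosome 10 from 40287458 to 40302186, minus strand) encodes S-adenosylmethionine decarboxylase, which makes the aminopropyl donor for spermidine and spermine. Its own level was 35.7, 28.3, 20.4, 17.9 and 18.5 CPM in the naïve, fresh week 2, fresh week 3, cultured week 2 and cultured week 3 libraries. The intronless copy *Amd2* (chromosome 10 from 35708675 to 35711892) shares 445 of 451 windows of 50 bases (98.7%) in the last 500 bases of *Amd1*, so reads of the counted end can rarely be told apart. *Amd2* was at 2.32 CPM in the naïve library and at 30.4, 31.4, 22.2 and 15.7 CPM in the other 4. It took 6.08% of the summed *Amd1* and *Amd2* UMIs in the naïve library and 46.0% to 60.6% elsewhere. The sum, added after the data had been seen, was 38.1 CPM in the naïve library, 58.7 and 51.8 CPM in the fresh and 40.1 and 34.2 CPM in the cultured libraries. On the sum the naïve library was no longer highest: it lay below both fresh libraries and its interval (36.0 to 40.2) met that of cultured week 2 (38.5 to 41.8). The *Amd1* rank of the naïve library is therefore uncertain.

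*Srm* (ENSMUSG00000006442, chromosome 4 from 148591503 to 148594993, plus strand), spermidine synthase, had its highest and lowest libraries the other way round from *Arg1*. It was at 18.4 CPM in the naïve library, 298 CPM (293 to 304) in fresh week 2, 105 CPM (98.6 to 112) in fresh week 3, 40.1 CPM (38.4 to 41.7) in cultured week 2 and 33.6 CPM (32.2 to 35.1) in cultured week 3. Fresh week 2 was highest and the naïve library lowest, 16.2-fold apart, with no overlap between neighbours. Without CD3 cells fresh week 3 was at 31.6 CPM (24.8 to 39.6), next to cultured week 3, while fresh week 2 stayed at 299 CPM. At 2000 UMIs, 38.6% of fresh week 2 cells held an *Srm* UMI against 3.58% to 10.5% in the other 4 libraries. *Myc*, the transcription factor that *Srm* is known to respond to, was at 24.4, 121, 60.9, 46.1 and 39.2 CPM in the same library order. It was also highest in fresh week 2 and lowest in the naïve library, and at 47.8 CPM in fresh week 3 without CD3 cells. The part of *Myc* in the *Srm* levels was not tested.

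*Sms* (ENSMUSG00000071708, chromosome X from 157443855 to 157492287, minus strand), spermine synthase and the gene with the E-box above in 1 of its windows, was at 111, 239, 134, 115 and 148 CPM in the naïve, fresh week 2, fresh week 3, cultured week 2 and cultured week 3 libraries. Fresh week 2 was again highest, the naïve and cultured week 2 levels overlapped, and fresh week 3 was at 145 CPM without CD3 cells. The catabolic gene *Sat1* (ENSMUSG00000025283, chromosome X from 155213132 to 155216449, minus strand) encodes the acetyltransferase that marks spermidine and spermine for export or breakdown. It was at 114, 59.3, 51.7, 150 and 110 CPM in the same order, so the fresh libraries from tumour-bearing mice lay below the naïve and both cultured ones. Without CD3 cells fresh week 3 was at 125 CPM (111 to 141) and only fresh week 2, at 59.1 CPM, remained low.

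Set against the naïve library, which has no replicate and no test, 9 of the 10 genes reached 10 CPM in either library. In fresh week 2, *Srm* and *Sms* were at least 2-fold higher, 2 of 9, where 21.4% of 8326 genes were, and *Arg1* and *Slc7a1* were at least 2-fold lower, 2 of 9, where 34.4% were. In fresh week 3, *Srm* alone was 2-fold higher (background 19.4% of 8529 genes), and *Arg1*, *Slc7a1* and *Sat1* were 2-fold lower (background 28.8%). Without CD3 cells none of the 9 was 2-fold higher in fresh week 3 (background 4.25%) and *Slc7a1* alone was lower (background 25.0%). The medians over the 9 genes were -0.33 and -0.20 on the log2 scale in weeks 2 and 3, beside -0.25 and -0.11 over all genes. None of these shares can be read as particular to the polyamine genes.

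Culture with cytokines was the only comparison with 2 libraries in each arm, ta-activated against ta-non-activated. The 2 libraries of an arm were of weeks 2 and 3, so their spread includes the week. The fresh pair lay far apart, with *Il13* at 8861 and 19.6 CPM and with 1.10% and 53.1% CD3 cells in weeks 2 and 3. Of 12643 genes tested with edgeR's quasi-likelihood test, 0 (0.0%) passed a Benjamini-Hochberg adjusted p of 0.05, and so 0 of the 9 genes tested here did (*Arg2* was too low). At an unadjusted p under 0.05, 2120 genes (16.8%) passed, 2 of the 9 among them, *Srm* and *Sat1*. *Srm* had a mean of 202 CPM ± 137 (SD, n = 2) in the fresh and 36.8 ± 4.54 in the cultured libraries, with a log2 fold change of -2.62 (SE 0.69, edgeR adjusted p = 0.252). *Sat1* had means of 55.5 ± 5.34 and 130 ± 28.4 CPM, with a log2 fold change of 1.12 (SE 0.39, edgeR adjusted p = 0.275). *Odc1* had means of 242 ± 81.4 and 132 ± 17.0 CPM and a log2 fold change of -0.95 (SE 0.36, edgeR adjusted p = 0.298). Without CD3 cells the edgeR estimates were -2.42 for *Srm*, 0.39 for *Sat1* and -1.49 for *Odc1* (adjusted p of 0.461, 0.781 and 0.399), and the fresh mean of *Sat1* was 92.2 ± 46.9 CPM, so the *Sat1* estimate moved by over 1.5 times. The estimates of 7 of the 9 genes with all kept cells lay below 0, with a median of -0.65 beside -0.02 over all genes tested. DESeq2 called 1037 genes (8.2%), of which *Srm* was the only one of the 9, at a log2 fold change of -2.63 and an adjusted p of 0.00532.

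*Arg1* showed no common direction in culture. Fresh and cultured means were 30.2 CPM ± 35.3 and 31.1 CPM ± 13.8 (SD, n = 2), and the log2 fold change was 0.07 (SE 1.04, edgeR adjusted p = 0.978). On the scale of CPM + 1, the cultured library of week 2 was 6.74-fold above the fresh one. The cultured library of week 3 was 2.52-fold below the fresh one, or 9.75-fold below without CD3 cells. The estimate became -1.88 without CD3 cells (edgeR adjusted p = 0.652). The loss of either fresh library also decided it: without week 2 it was -0.75 and without week 3 it was 2.34, with edgeR adjusted p of 0.329 and 0.0765. Within week 2, *Arg1* and *Sat1* were at least 2-fold higher in culture (15.6% of 7532 genes were) and *Srm* and *Sms* at least 2-fold lower (10.3%). Within week 3, *Sat1* was 2-fold higher (18.9% of 8189 genes) and *Arg1*, *Odc1* and *Srm* 2-fold lower (16.3%). Without CD3 cells, week 3 had 0 of the 9 genes 2-fold higher (19.9%), and *Arg1* and *Odc1* 2-fold lower (10.7%), while *Srm* and *Sat1* had log2 ratios of 0.08 and -0.19. Between the cultured libraries of weeks 2 and 3, none of the 9 was 2-fold apart, where 3.08% of genes were higher and 2.37% lower in week 3.

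**Figure D2:**
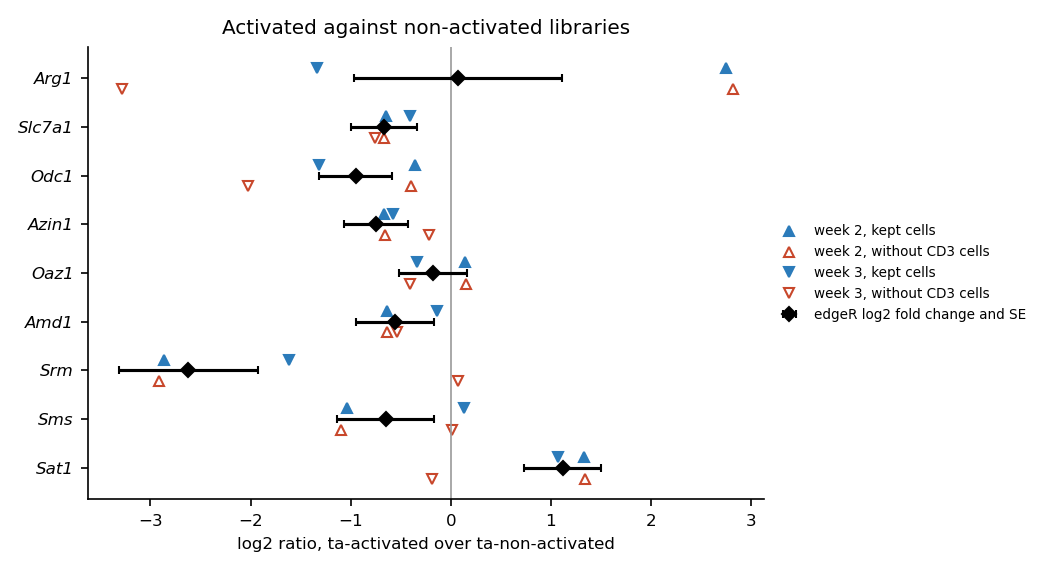
Log2 ratios of ta-activated over ta-non-activated libraries for 9 genes; diamonds with bars are edgeR estimates with their SE, and triangles are the ratios within week 2 and week 3, filled for all kept cells and open without CD3 cells. The week 2 and week 3 ratios of *Arg1* lie on opposite sides of 0 (2.75 and -1.33), and the week 3 ratios of *Srm* and *Sat1* move to near 0 when CD3 cells are left out.

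Within fresh week 3, levels of the 10 genes were compared between CD3 cells and the other cells. The share of all genes that differed between them was not computed, so no difference can be read as particular to these genes. At 2000 UMIs per cell, *Arg1* was at 3.54 CPM (1.30 to 7.71) in CD3 cells and at 235 CPM (209 to 262) in the others. *Odc1* was at 305 CPM (279 to 332) and 478 CPM (441 to 517), and *Sat1* at 27.7 CPM (20.4 to 36.9) and 123 CPM (105 to 144). *Srm* went the other way, at 87.4 CPM (73.9 to 103) in CD3 cells and 33.2 CPM (24.0 to 44.7) in the others. *Sms* and *Slc7a1* were lower in CD3 cells, at 92.1 against 154 CPM and 17.1 against 35.5 CPM, and the intervals of *Azin1* and *Amd1* overlapped. The naïve library had the same order for *Arg1*, at 103 CPM in 472 CD3 cells and 375 CPM in the others, but the reverse order for *Odc1*, at 469 and 318 CPM. In fresh week 2, with 20 CD3 cells, *Srm* was at 266 CPM outside them, so its high level there did not rest on CD3 cells.

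**Figure D3:**
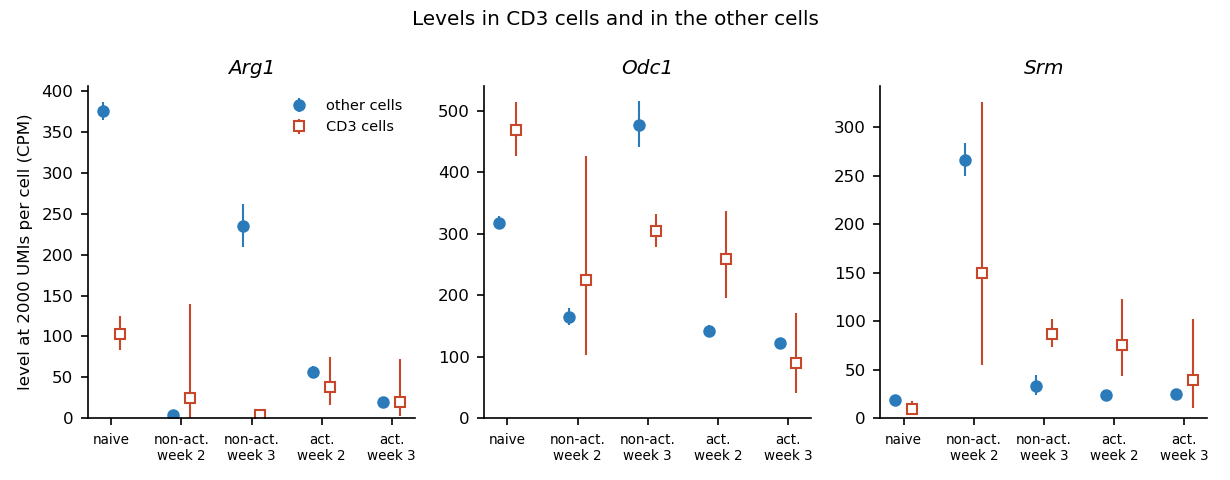
Levels of *Arg1*, *Odc1* and *Srm* (CPM at 2000 UMIs per cell, axis from 0) in CD3 cells (open squares) and the other cells (filled circles) of each library, with exact Poisson 95% intervals. In fresh week 3 *Arg1* is far higher in the other cells (235 against 3.54 CPM), and *Srm* is higher in CD3 cells (87.4 against 33.2 CPM).

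Cell by cell, rank correlations with *Il13* were weak, though levels of *Arg1*, *Odc1* and *Srm*, among others, differed between cells with and without it in some libraries. Spearman's rho between the thinned UMIs of *Arg1* and *Il13* was 0.05 in the naïve library, -0.02 in fresh week 2, 0.06 in fresh week 3, 0.02 in cultured week 2 and 0.01 in cultured week 3. The middle 90% of 3471 genes lay from -0.03 to 0.03 in the naïve library, so *Arg1* was outside it there. The fresh week 3 value was -0.02 without CD3 cells, and few cells there held *Il13* at all. Over all 10 genes and 5 libraries (46 values, since *Arg2* gave 1) the range was -0.04 to 0.13. Cells of 1 library share depth and handling, so these are descriptions with no test. The highest value was that of *Srm* in fresh week 2, 0.13, where the middle 90% of genes lay from -0.07 to 0.07. In that library *Srm* was at 285 CPM in the 1594 cells with an *Il13* UMI and at 116 CPM in the 215 without, and these cells had median depths of 16975.5 and 9830 UMIs before thinning. *Odc1* came next, with 0.09 in fresh week 3 and 0.13 there without CD3 cells. Only 29 cells of fresh week 3 held an *Il13* UMI, none of them CD3 cells, and *Odc1* was at 1621 CPM (1310 to 1983) in them against 355 CPM (334 to 377) in the other 1466, or 424 CPM (389 to 462) in the other 619 without CD3 cells. In the naïve library *Odc1* was likewise higher in the 287 *Il13* cells, at 463 against 323 CPM. In culture it was lower in them, at 131 against 188 CPM in week 2 and at 115 against 162 CPM in week 3, with no overlap of intervals in any of these libraries. The intervals cover counting error only. The variance of *Odc1* counts over cells was 1.96 to 3.63 times the mean in these libraries, so its intervals are too narrow. The ratio was 2.02 for *Arg1* and 1.36 for *Slc7a1* in the naïve library, and 1.56 for *Sat1* in cultured week 2. Their intervals there are too narrow as well. *Arg1* was at 484 CPM in naïve *Il13* cells and 348 CPM in the rest, and *Slc7a1* at 181 and 105 CPM. Over the 5 libraries *Arg1* was higher in *Il13* cells in 4, with no overlap of intervals in 2, or in 1 without CD3 cells. It was higher in 5 of 5 without thinning (no overlap in 3) and in 5 of 5 at 1000 UMIs (no overlap in 1).

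**Figure D4:**
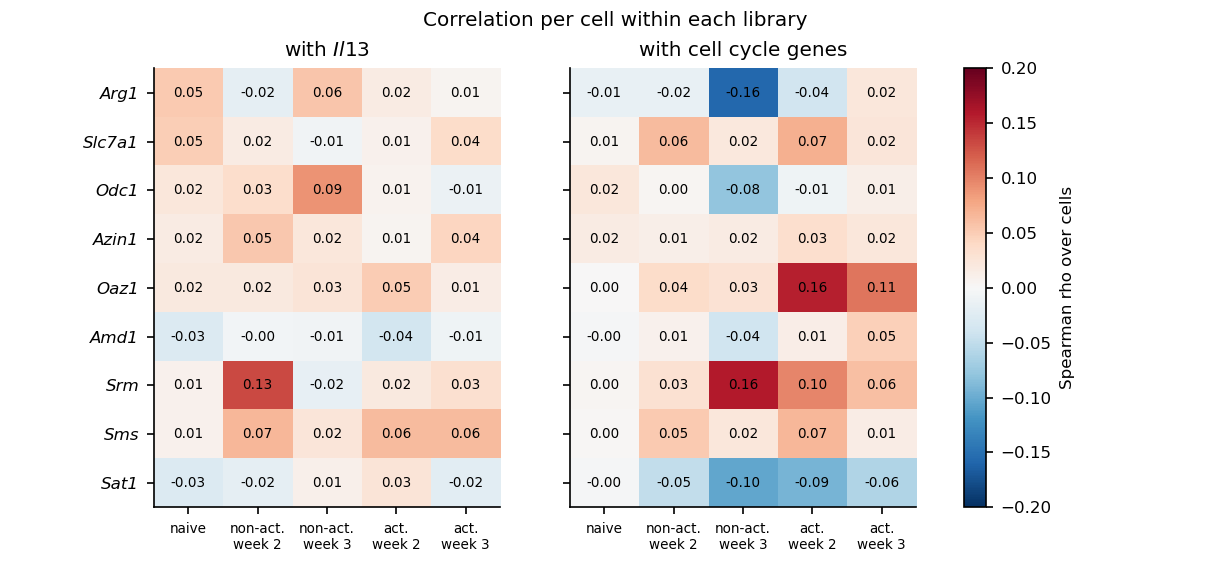
Spearman's rho over cells, within each library at 2000 UMIs per cell, of 9 genes with *Il13* (left) and with the summed UMIs of 12 cell cycle genes (right); the colour scale runs from -0.20 to 0.20. All values lie from -0.16 to 0.16, and the strongest are in fresh week 3 (*Arg1* and *Srm* with the cell cycle genes), fresh week 2 (*Srm* with *Il13*) and culture (*Oaz1* with the cell cycle genes).

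The relation to the cell cycle was read from 6 S phase and 6 G2/M genes. *Arg1* had a rho of -0.16 with their sum in fresh week 3 and of -0.01, -0.02, -0.04 and 0.02 in the naïve, fresh week 2, cultured week 2 and cultured week 3 libraries. Of the 220 cycling cells of fresh week 3 (UMIs of at least 2 of the 12 genes), 90.9% were CD3 cells, and the rho was -0.02 without CD3 cells. The middle 90% of 3471 genes lay from -0.12 to 0.16 in fresh week 3, from -0.08 to 0.12 in cultured week 2 and from -0.06 to 0.09 in cultured week 3. *Srm* had 0.16 in fresh week 3, 0.05 there without CD3 cells, and 0.10 and 0.06 in the cultured libraries, at the upper bound of all genes in the first and within it in culture. *Oaz1* had 0.16 and 0.11 in the cultured libraries of weeks 2 and 3, above those bounds in both. *Sat1* lay below 0 in all 5 libraries, at -0.10 in fresh week 3 (-0.07 without CD3 cells), -0.09 and -0.06 in culture, -0.05 in fresh week 2 and close to 0 in the naïve library, of which only the cultured week 2 value passed its lower bound.

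Levels in cycling cells put this on a scale that is easier to read. *Arg1* was lower in cycling cells in 4 of 5 libraries, with log2 ratios of -3.04 to 0.18 and no overlap of intervals in 2. Without CD3 cells it was lower in 3 of 5, with log2 ratios of -0.92 to 0.20 and no overlap in 1. With a cut at 3 of the 12 genes it was also lower in 3 of 5, and without thinning in 4. At 1000 UMIs it was lower in 3 and higher in 2 (log2 ratio up to 1.07), with no overlap in 1 each way. Fresh week 2 had only 15 thinned cells with an *Arg1* UMI. Cycling cells were 1.38% of naïve cells, 14.3% and 14.7% of the fresh and 24.4% and 18.9% of the cultured cells of weeks 2 and 3. *Srm* was at 161 CPM in cycling and 47.1 CPM in other cells of fresh week 3, at 48.7 and 19.2 CPM in cultured week 2 and at 37.7 and 22.2 CPM in cultured week 3, with no overlap in these 3 libraries. In fresh week 2, where its level was highest, *Srm* was at 304 and 259 CPM with overlapping intervals, and the naïve library had 2 *Srm* UMIs in 85 cycling cells. *Sat1* was lower in cycling cells in 5 of 5 libraries, by log2 ratios of -0.16 to -1.34, with no overlap in 3. It was also lower in 5 of 5 without CD3 cells, with no overlap in 2. *Sms*, *Azin1*, *Oaz1* and *Slc7a1* were higher in cycling cells in 5 of 5 libraries. Without CD3 cells only *Slc7a1* was, and its intervals overlapped in each. *Sms*, *Azin1* and *Oaz1* were then higher in 4 of 5, with no overlap in 1 for *Sms* and in 2 for *Oaz1*. Only 20 cycling cells were left in fresh week 3 without CD3 cells. Directions over all genes were not computed. *Oaz1* stood at 1730 against 1424 CPM in cultured week 2 and 1244 against 1075 CPM in cultured week 3, with no overlap. *Odc1* was lower in cycling cells of fresh week 3 (218 against 407 CPM), and its intervals overlapped in the other 4 libraries and, without CD3 cells, in all 5. The cut is a range and not a cell type: 52 to 175 cells per library held exactly 2 of the 12 genes and 263 to 797 held exactly 1. Cycling cells were deeper before thinning, with medians of 6766 to 24537.5 UMIs against 4183 to 14940.

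**Figure D5:**
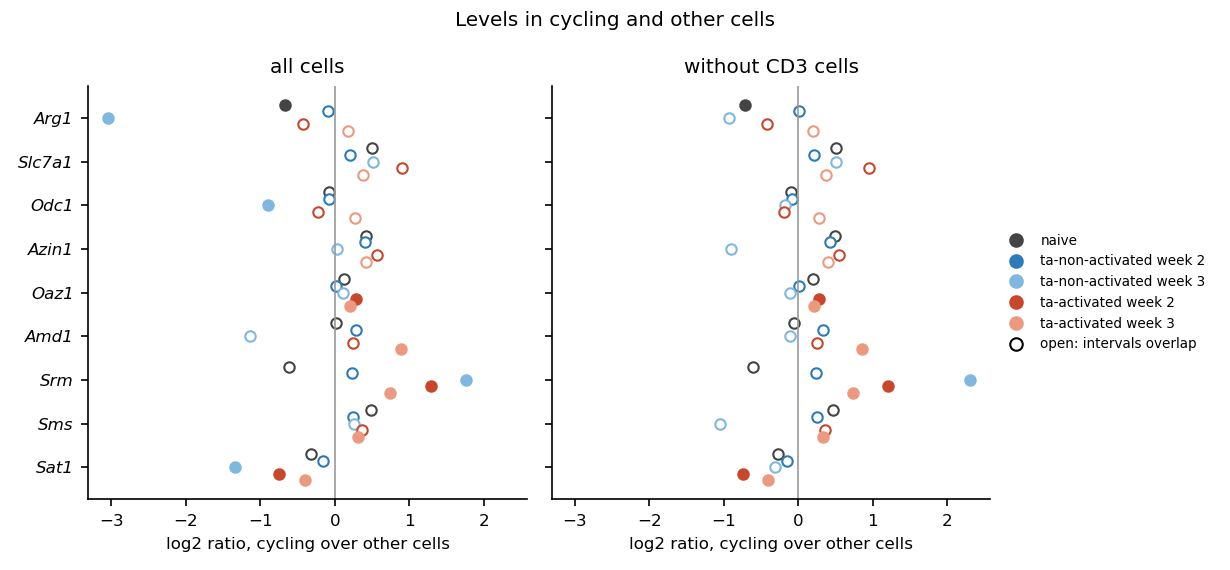
Log2 ratio of the level in cycling over other cells at 2000 UMIs per cell, for 9 genes in each of the 5 libraries, with all cells (left) and without CD3 cells (right); filled points mark intervals that do not overlap. *Sat1* lies left of 0 in every library in both panels, and *Srm* lies right of 0 in 4 of 5, up to 1.76 with all cells.

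In the thinned counts, rank correlations among the 10 genes were small. Over 189 pairs of genes and libraries, rho ranged from -0.09 (*Arg1* with *Odc1* in the naïve library) to 0.10 (*Arg1* with *Sat1* in fresh week 3). The latter value includes the CD3 cells, in which both genes were lower than in the other cells. Pairs were not computed without CD3 cells. Thinned counts are sparse, with means in the naïve library of 0.0369 UMIs per cell for *Srm* and 0.0696 for *Amd1*, against 1.84 for *Oaz1*. Sparse counts draw rho towards 0, so these values cannot show how far the genes vary together. Over the 5 libraries, the genes whose thinned counts were most like those of *Arg1*, out of 3471 genes with at least 20 CPM in each library, were *Tmsb4x* (mean rho 0.15), *Itm2b* (0.14), *S100a4* (0.13), *Cd52* (0.12) and *S100a6* (0.12). These means rest on fresh week 3, where the 5 values were 0.39 to 0.46, against 0.09 to 0.13 in the naïve library and at most 0.11 in the other 3, and 847 of the 1495 cells there were CD3 cells. For *Odc1* they were *Ifrd1* (0.12), *Junb* (0.10), *Cebpb* (0.09), *Hilpda* (0.09) and *Nfkbia* (0.09), of which *Junb* and *Nfkbia* are known early response genes. Their values were 0.16 to 0.24 in the naïve library and 0.18 to 0.23 in fresh week 3, but -0.03 to 0.05 in fresh week 2 and -0.01 to 0.08 in culture.

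Of 42 other genes of arginine, proline, methionine salvage and polyamine metabolism, 41 had a single entry, 16 stayed under 10 CPM in every library and 12 reached 50 CPM in at least 1. In the edgeR test 0 of 34 passed the adjusted threshold, and 7 had an unadjusted p under 0.05 where 16.8% of all genes had. Of the 34, 22 had estimates below 0, and their median was -0.62 beside -0.02 over all genes tested. DESeq2 called 2 of the 34 where it called 8.2% of all genes, so the counts of genes passing a threshold lay near the background. Genes of the list that reached 50 CPM and spanned at least 4-fold included *Eif5a*, *Ass1*, *Mtap* and *Smox*. *Eif5a*, the carrier of hypusine, was at 398 CPM in the naïve library, 3232 and 1666 CPM in the fresh and 1102 and 846 CPM in the cultured libraries of weeks 2 and 3, highest and lowest in the same libraries as *Srm*. Without CD3 cells *Eif5a* was at 1033 CPM, *Mtap* at 21.8 CPM, *Ass1* at 74.2 CPM and *Smox* at 38.0 CPM in fresh week 3. *Mtap*, which recycles the methylthioadenosine left by both synthases, was at 26.6, 114, 43.4, 26.1 and 22.9 CPM, also highest in fresh week 2. *Ass1*, which rebuilds arginine from citrulline, was lowest in the naïve library (25.3 CPM) and at 139, 89.4, 145 and 75.7 CPM in the other 4. *Smox*, the spermine oxidase, was highest in cultured week 2 (96.3 CPM) and at most 41.6 CPM in the other 4. Between the naïve and fresh week 2 libraries, 10 of the 21 genes that reached 10 CPM were at least 2-fold higher, where 21.4% of all genes were, and 2 were lower, where 34.4% were. Every gene of this list was chosen with earlier results of these data known.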

How the data were processed

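Counts of UMIs per gene and cell barcode were deposited by the authors with no normalization, and the matrix headers name Cell Ranger 6.0.0 for the naïve library and 3.0.2 for the other 4. The submitters' processing notes name GRCm38, Cell Ranger 3.0.2 and Seurat 3, and the annotation release is not given in the sources used here. The deposited matrices held 18628 barcodes, of which 16530 were kept. Only the 27726 genes common to the 5 matrices were used. Kept cells had at least 200 genes and under 5% mitochondrial counts, and no doublet caller was run. Totals of the kept cells ranged from 9394957 to 61830293 UMIs, so 3 UMIs correspond to at most 0.319 CPM. Positions are from GENCODE M21 (27639 of 27726 identifiers found) and promoters from RefSeq.

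UMIs summed per library were tested with edgeR 4.0.16 (filterByExpr, TMM, quasi-likelihood F test, Benjamini-Hochberg over all genes tested), ta-activated against ta-non-activated. On simulated counts for this comparison over 12643 genes, the test recovered 200 of 200 genes changed 8-fold. The simulated libraries were given a smaller spread than the real ones, whose common biological coefficient of variation was 0.513. The recovery therefore checks the code and does not measure the power of the test on these data. With pooled animals and libraries told apart only by week, p-values measure the spread between libraries. Log2 ratios and 2-fold calls between 2 libraries use CPM + 1 and genes with at least 10 CPM in either. Folds between the highest and lowest library of a gene use CPM with nothing added. Per-cell measures use cells with at least 2000 UMIs thinned to 2000 (242, 14, 106, 73 and 108 cells left out, in the order naïve, fresh weeks 2 and 3, cultured weeks 2 and 3).

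Genes named are the 10 members, other pathway genes that reached 50 CPM in a library and spanned 4-fold, the 5 genes most like *Arg1* and *Odc1*, and 5 reference genes, and 1 result under this rule is not reported here. The members and lists were chosen with earlier results of these data known. Alternatives were DESeq2 1.42.0, the week as a replicate block, other filters and cell sets, limma 3.58.1 on means over cells, each library left out, other depths of thinning, and 4 added after the data had been seen (no CD3 cells with the block, *Amd1* summed with *Amd2*, and levels of other genes and spread over cells without CD3 cells). Python 3.11.15, numpy 2.4.6, scipy 1.17.1, pandas 2.3.3, matplotlib 3.10.9 and R 4.3.3 were used.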

Additional observations from a re-analysis of the deposited data

Results flagged for a closer look

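The ratios of cultured over fresh libraries had opposite signs in the 2 weeks for *Arg1* and, with a week 3 ratio near 0, for *Sms*. The log2 ratio of ta-activated over ta-non-activated was 2.75 in week 2 and -1.33 in week 3 for *Arg1*, and -1.04 and 0.14 for *Sms*. Without CD3 cells these were 2.82 and -3.29 for *Arg1* and -1.10 and 0.01 for *Sms* (146 against 145 CPM in week 3, with overlapping intervals), and *Srm* (-2.92 and 0.08) and *Sat1* (1.35 and -0.19) also differed in sign. Each week has 1 library per arm, so the difference between weeks was not tested.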

How the results depend on the processing

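The count of genes called between ta-activated and ta-non-activated libraries was 0 in the reported edgeR fit and 1037 with DESeq2. It ranged from 0 to 1646 when 1 library was left out: 1646 without fresh week 2, 513 without fresh week 3 and 0 without either cultured library (the lone fresh or cultured library is then assumed to vary like the other group). It was 0 with the week as a replicate block, and 66 with that block and no CD3 cells. Of the 9 genes, 1 was called with DESeq2, and 0 to 1 when 1 library was left out (*Srm* without either fresh library, edgeR adjusted p 0.0478 and 0.0465), and 0 with the block. The week is the time since the tumour was implanted, and the sources used here do not say whether both libraries of a week came from the same mice. The deviations of the libraries from their group means had a correlation between the arms of -0.04 over 7356 genes. It was 0.06 over 7252 genes without CD3 cells. Such a correlation cannot show whether the libraries of a week are paired. Of 135 alternative estimates of the 9 genes, 8 changed sign. Those of *Arg1* were -1.88 without CD3 cells, -0.016 without the top 5% of cells by UMIs, -0.058 from means over cells, -0.31 without CD3 cells with the block, and -0.75 to 2.34 over the fits without 1 library (-0.75 without fresh week 2, -0.50 without cultured week 2). *Sms* ranged from -1.11 to 0.035 over the fits without 1 library (0.035 without fresh week 2) and *Oaz1* from -0.37 to 0.046 (0.046 without cultured week 3). The block changed no call of a gene named here.

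The *Arg1* level was 371 CPM in the naïve and 216 CPM in the fresh week 3 library without CD3 cells, and 114 CPM in the latter as a mean over cells. The share with an *Arg1* UMI was 57.9%, 34.8% and 16.3% in the naïve and the cultured libraries without thinning, 24.8% and 5.18% in the naïve and cultured week 2 libraries at 1000 UMIs, and 41.6% and 31.5% in the naïve and fresh week 3 libraries without CD3 cells. Without thinning, rho of *Arg1* with *Il13* was 0.094 in the naïve and 0.18 and 0.14 in the cultured libraries, and with the cell cycle genes 0.079, -0.25, 0.095 and 0.14 in the naïve, fresh week 3 and cultured libraries. Without CD3 cells they were -0.016 and -0.023 in fresh week 3. Genes higher in cycling cells in all 5 libraries numbered 4, and 1 without CD3 cells, where fresh week 3 had 20 cycling cells. Genes higher in *Il13* cells in all 5 numbered 3 (*Sms*, *Azin1* and *Slc7a1*). Without thinning and at 1000 UMIs there was 1, which was *Arg1* in both and not among the 3. Genes lower in *Il13* cells in all 5 numbered 1, and 0 without thinning. Such counts for cycling and *Il13* cells were not computed over all genes, so none can be read as particular to these genes. At a minimum of 50 CPM, 1 gene in place of 2 was 2-fold higher in cultured than fresh week 2. Beyond the cells or depth that an alternative removes, the cause was not tested. Depth limits *Arg2* in every library and *Amd1*, *Azin1* and *Slc7a1* per cell.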
